A study of Mus musculus with 2 samples.

Results

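Conventional CD4 T cells are the helper T cells of the tumour, here the CD4 T cells without a transcript of the regulatory T cell factor Foxp3. They were chosen by raw counts of unique molecular identifiers (UMIs, 1 per captured transcript). A barcode was a member with at least 1 UMI of Cd3e, a subunit of the T cell receptor complex, and at least 1 of Cd4, the co-receptor for MHC class II. It also had no UMI of Foxp3, of Cd8a or Cd8b1 (the CD8 co-receptor), of the macrophage receptor gene Csf1r or of the B cell receptor component Cd79a. The rule found 555 of 22490 barcodes, 2.47% of all barcodes with at least 300 genes and at most 10% mitochondrial UMIs. Of these, 196 came from Trex1 iKO samples and 359 from control samples.

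The leukocytes came from B16-F10 melanomas, a mouse skin cancer line, grown for 14 days in the skin of both legs of male mice of 8 to 12 weeks, from 1000 injected cells. The iKO mice were Trex1 fl/fl-R26CreERT2-ki/wt and the control mice Trex1 wt/fl-R26CreERT2-ki/wt, so the controls carried 1 floxed allele and the same Cre. Both groups received 1 mg of tamoxifen, which activates that Cre, on 3 days from day 5. The Cre is driven from the Rosa26 locus, active in most cell types, so the floxed alleles of the host were targeted in general and not in CD4 T cells alone. Live CD45-positive cells were sorted and run as 4 hashtagged samples per genotype. Each genotype was a pool of its own, so pool and genotype cannot be told apart in any comparison. The labels do not say that each sample was a separate animal, and the p-values measure only the spread between these samples.

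Helper T cells read antigen on MHC class II and act through surface ligands such as CD40 ligand, which licenses dendritic cells and B cells, and through cytokines. They can take on different programmes, of which Th1 cells make interferon gamma and Th17 cells make interleukin 17. TREX1 degrades DNA in the cytosol, and without it such DNA can activate cGAS and STING and lead to release of type I interferon. Type I interferon binds its receptor on nearly every cell, T cells included, and through a transcription factor complex that includes IRF9 induces a large set of antiviral genes. The bound DNA motif of that complex is known as the interferon-stimulated response element.

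The marker fixed for the class but not used by the rule was Cd40lg, the gene of CD40 ligand. It was detected in 225 members (40.5%), against 3.93% of 356 Foxp3-positive barcodes (the same rule with at least 1 UMI of Foxp3, here Treg), 0.877% of 4673 CD8 T cells and 0.228% of 8779 barcodes of a macrophage gate. Median depths were 5837 UMIs in members, 8860 in Treg, 13626 in CD8 T cells and 14627 in the macrophage gate, so the class with the fewest UMIs had the most barcodes with Cd40lg. T cell receptor transcripts were found in most members, Trac in 492 and Trbc2 in 527 of 555, against 9.59% and 21.9% of the macrophage gate. Trdc, of gamma-delta T cells, was in 8 members and Ncr1, of NK cells, in 3. These values go with the label for most members. Ikzf2, a factor abundant in Treg, was detected in 168 members (30.3%), against 98.0% of Treg and 44.7% of CD8 T cells. It is thus not particular to Treg here, and whether some members were Treg without a Foxp3 UMI was not tested.

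The edges of the rule were thin. Cd3e stood at exactly 1 UMI in 105 members (18.9%) and Cd4 at exactly 1 UMI in 210 (37.8%). Outside the rule, 844 barcodes missed it only for want of a Cd4 UMI, 107 only for Cd3e, and 356 only because they held Foxp3, 59 of those with a single UMI. Csf1r alone kept out 78 barcodes, Cd8b1 68, Cd8a 44 and Cd79a 21. Lyz2, a myeloid lysozyme gene, was detected in 75.9% of members, 76.7% of Treg and 80.5% of CD8 T cells. The median share of a member's UMIs that came from macrophage, neutrophil and related myeloid marker genes ran from 0.121% to 0.130% over the iKO samples and from 0.226% to 0.244% over the controls.

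The samples held 1362 to 6117 barcodes and 17111065 to 96457227 UMIs. Between replicates the members' summed counts gave a chi-square of 2.07 to 4.15 per degree of freedom, above sampling noise, so none was a duplicate. No barcode was shared by matrices of a pool. A Scrublet doublet score over 0.25 was reached by 6 members, which were kept. Trex1 (ENSMUSG00000049734) had 0 UMIs in members of every sample and 2 over all kept barcodes, so its loss cannot be checked here. A count of 0 allows 4.16 to 10.5 CPM (counts scaled to a common library total) per sample, from 3 counts. Atrip, which neighbours Trex1, had 42 UMIs in members, or 13.3 ± 6.49 CPM for iKO and 10.4 ± 2.48 for control (SD, n = 4 each, without TMM scaling). Slc16a11, a solute carrier gene, had 14 UMIs in members, 11 of them in control sample 2.

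The promoters of 4 of the genes that rose in iKO members are shown because they hold the interferon-stimulated response element in its simplest spelling, GAAANNGAAA on either strand. Each window runs from 250 bases before to 50 after the annotated start (RefSeq, GRCm38.p6), 5′ to 3′ on the gene's strand, with matches in capitals, where a match on the other strand reads as its reverse complement.
Ifit3 (chr19:34583279-34583578, plus strand): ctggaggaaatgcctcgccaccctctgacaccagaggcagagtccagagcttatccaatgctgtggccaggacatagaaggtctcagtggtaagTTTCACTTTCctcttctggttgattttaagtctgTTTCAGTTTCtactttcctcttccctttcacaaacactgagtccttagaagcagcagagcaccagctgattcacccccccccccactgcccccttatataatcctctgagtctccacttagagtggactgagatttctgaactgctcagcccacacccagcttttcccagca
Isg15 (chr4:156200769-156201068, minus strand): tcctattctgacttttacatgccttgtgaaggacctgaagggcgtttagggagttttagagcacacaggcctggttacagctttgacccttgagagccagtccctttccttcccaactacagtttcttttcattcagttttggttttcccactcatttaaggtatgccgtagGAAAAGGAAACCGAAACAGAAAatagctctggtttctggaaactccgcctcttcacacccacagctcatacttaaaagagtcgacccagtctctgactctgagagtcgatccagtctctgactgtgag
Ifit1 (chr19:34640639-34640938, plus strand): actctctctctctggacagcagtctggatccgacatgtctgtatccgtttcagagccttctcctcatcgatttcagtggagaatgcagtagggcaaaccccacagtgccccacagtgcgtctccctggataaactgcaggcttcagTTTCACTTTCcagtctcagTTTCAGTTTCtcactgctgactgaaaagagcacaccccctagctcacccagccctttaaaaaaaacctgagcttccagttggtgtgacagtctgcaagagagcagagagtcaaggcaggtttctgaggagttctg
Oas1a (chr5:120907476-120907775, minus strand): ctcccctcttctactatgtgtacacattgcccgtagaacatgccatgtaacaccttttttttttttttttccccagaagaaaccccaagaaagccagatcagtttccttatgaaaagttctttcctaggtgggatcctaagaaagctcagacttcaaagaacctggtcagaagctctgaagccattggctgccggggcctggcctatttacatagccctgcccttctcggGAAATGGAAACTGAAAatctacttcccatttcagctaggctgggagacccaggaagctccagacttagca
Matches began 122 and 156 bases before the start of Ifit3, 85 and 104 before that of Ifit1, 14 and 20 before that of Oas1a (overlapping) and 66, 72 and 78 before that of Isg15 (overlapping). The motif was in 3.44% of the 32851 windows of the table, and in 197 (4.79%) of the 4115 tested genes that matched it by symbol. Among genes called higher in iKO members it was in 21 (42.0%) of 50 that matched, and among genes called lower in 0 of 20. Of the 15 named rising genes, 10 matched and 5 held it, while the windows of Irf7 and Ifi44 held 0 matches. A match is a run of letters, not a shown binding site.

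How many conventional CD4 T cells were recovered was compared first. Members numbered 50, 55, 34 and 57 in the 4 iKO samples, against 104, 88, 120 and 47 in the controls. As a share of kept barcodes these were 1.29%, 0.932%, 2.61% and 2.32% for iKO, against 5.26%, 5.14%, 4.34% and 1.88% for control. Control sample 4 lay inside the iKO range and the other controls above it. The means were 1.79% ± 0.80 and 4.15% ± 1.57 (SD, n = 4 each; exact permutation test, two-sided, p = 0.0857), so the share did not pass the test.

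Other denominators gave groups that did not overlap. Of barcodes with Cd3e, iKO members were 4.93% ± 3.23 and control members 12.2% ± 1.86 (SD, n = 4; exact permutation p = 0.0286, the smallest this design allows). Of barcodes without Csf1r and Csf3r, the neutrophil growth factor receptor, they were 4.60% ± 2.63 and 8.84% ± 1.57 (exact permutation p = 0.0286). CD8 T cells, which enter these denominators, took 22.1% ± 13.4 of kept iKO barcodes and 11.2% ± 6.53 of kept control barcodes (exact permutation p = 0.229). Treg took 1.67% ± 0.525 and 1.72% ± 0.932 (exact permutation p = 0.886); whether the 2 classes differ in this was not tested. With every barcode thinned before the rule was applied, the shares were 1.17% and 2.17% at 2000 UMIs and 0.503% and 0.926% at 1000 UMIs (exact permutation p = 0.0857 and 0.0571). Without control sample 4 the share of kept barcodes gave an exact permutation p of 0.0286.

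**Figure D1:**
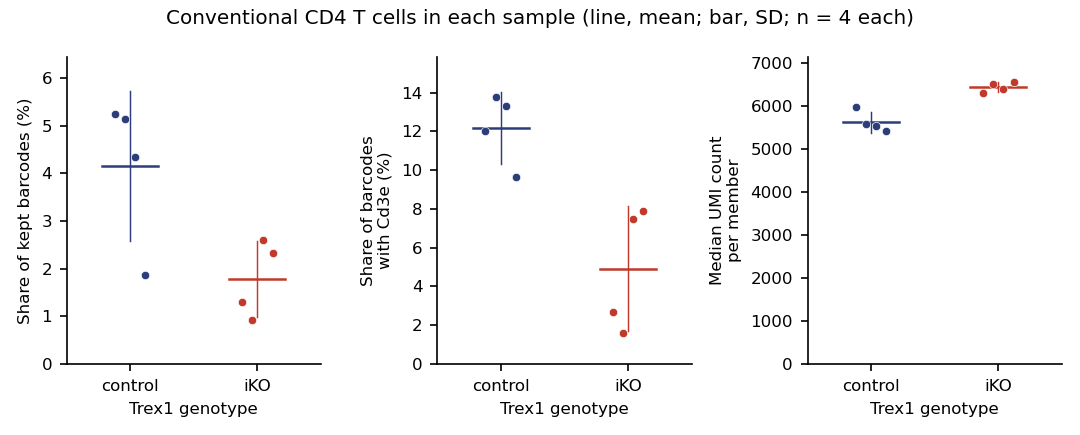
Members in each sample: their percent of kept barcodes, their percent of barcodes with Cd3e, and their median UMI count, by genotype, with 1 point per sample, the mean as a line and the SD as a bar. Control sample 4, at 1.88% of kept barcodes, is the control point within the iKO range on the left, and the groups do not overlap in the middle panel. Median UMIs per member were 5408 to 5967.5 in control and 6298.5 to 6552 in iKO samples.

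Gene expression was then compared between genotypes on UMIs summed over the members of each sample (286977 to 721409 per sample). edgeR's quasi-likelihood test with Benjamini-Hochberg adjustment passed 92 of 5067 genes at the adjusted threshold of 0.05 (1.82%). Of these, 64 were higher in iKO (1.26%) and 28 lower (0.553%). Interferon-stimulated genes made up most of the rises: 33 of the 64 stood on a list of type I interferon response genes and 8 on a list of interferon gamma response genes. The falls held 5 mitochondrially encoded genes, 7 ribosomal protein genes and 16 others, several of them myeloid transcripts. DESeq2 called 112 genes, 87 higher and 25 lower.

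Usp18, which removes ISG15 from proteins and dampens the interferon receptor, was at 81.8, 187, 69.5 and 70.1 CPM in iKO samples 1 to 4, against 15.7, 3.74, 7.40 and 0 CPM in the 4 controls. Every iKO sample was above every control sample, and iKO sample 2 stood well above the others. The log2 fold change was 3.67 ± 0.49 (SE; edgeR adjusted p = 0.0014). Isg15, the gene of that ubiquitin-like protein, was at 614, 1172, 302 and 324 CPM in iKO and 118, 99.0, 115 and 37.8 in control, with no overlap (2.64 ± 0.40, edgeR adjusted p = 0.00405). Ube2l6, the conjugating enzyme for ISG15, rose by 2.21 ± 0.38 on the log2 scale (adjusted p = 0.00833), while Herc6, the ligase, was at 1.51 and not called (0.0529).

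Ifit3, of the same family as Ifit1, was at 140.3, 431, 118 and 132 CPM in iKO and 44.0, 14.9, 40.0 and 11.3 in control (log2 fold change 2.78 ± 0.45, edgeR adjusted p = 0.0067). Ifit1, whose protein binds RNA that lacks host cap marks, was at 155, 374, 93.9 and 86.3 CPM against 48.7, 28.0, 31.1 and 7.56 (2.50 ± 0.46, adjusted p = 0.0132). Both genes were highest in iKO sample 2, and in neither did the groups overlap. The call of Ifit1 was lost without control sample 2 or 3 (adjusted p 0.0657 and 0.0671 by edgeR). Oas1a, a sensor of double-stranded RNA that activates RNase L, was more even: 78.9, 83.7, 45.2 and 53.9 CPM against 9.43, 9.34, 7.40 and 15.1 (2.76 ± 0.32, adjusted p = 0.00052). Its relatives Oas3 and Oasl2 rose by 1.81 and 1.75 on the log2 scale, calls lost when sample 1 or 2 of iKO (iKO 1, iKO 2) or sample 2 or 3 of control was left out, and for Oas3 also without control sample 4. Among other genes of the list, Rsad2 at 1.86, Ifih1 at 1.16, Ddx58 at 0.93 and Eif2ak2 at 0.63 were not called (edgeR adjusted p = 0.0849, 0.0849, 0.0625 and 0.590). Of the printed promoters, those of Ifit3, Isg15, Ifit1 and Oas1a thus belong to genes with rises of 2.50 to 2.78.

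Irf7, the transcription factor that amplifies type I interferon production, stood at 228, 308, 108 and 162 CPM in iKO and 51.9, 41.1, 41.4 and 11.3 in control (2.36 ± 0.33, edgeR adjusted p = 0.00222). The lowest iKO sample was at more than the highest control sample. Ifi27l2a, an interferon-induced mitochondrial and nuclear membrane protein gene, was at 7477, 6149, 3706 and 3512 CPM in iKO and 1562, 893, 768 and 1058 in control. Its fold change was 2.28 ± 0.25 (adjusted p = 0.00036). It was found in 93.9% ± 3.06 of iKO members, against 59.7% ± 6.53 of control members, after each member was thinned to 2000 UMIs (SD, n = 4; exact permutation p = 0.0286, adjusted over the 41 genes of the panel 0.146). The unadjusted value is the smallest this design allows, and with 8 panel genes at it the adjusted value could not pass.

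The other genes of the naming rule with large rises were Ifi44 (3.55), Ifi214 (2.43), Xaf1 (2.29), Isg20 (2.22), Iigp1 (2.10), Ifi204 (2.08) and Rtp4 (2.02, all log2 fold changes). Ifi44 was at 0 UMIs in control samples 2 and 3. Iigp1 encodes an immunity-related GTPase that attacks vacuoles of parasites, Isg20 an RNA exonuclease, and Ifi204 and Ifi214 belong to the PYHIN family of DNA sensors and regulators. Of that family, Ifi203, Ifi206, Ifi208, Ifi209 and Ifi213 were also called, higher by 0.94 to 1.93, as was Mndal, by 0.95, while Ifi211, at 1.31, and Aim2, at -0.14, were not (edgeR adjusted p = 0.148 and 0.825). Samhd1, which like TREX1 limits nucleic acid sensing, rose by 0.93 ± 0.19 (edgeR adjusted p = 0.0234). The calls of Ifi203, Ifi206, Ifi209, Mndal and Samhd1 were lost without iKO 1 or 2 or control 2, 3 or 4. Ifi44, Iigp1 and Ifi208 lost theirs without control 3. The other called genes of the type I list were Bst2 (1.65), Zbp1 (1.67), Ifi35 (1.39), Lgals3bp (1.5), Phf11b (1.66), Parp9 (1.21), Parp14 (0.86), Slfn1 (1.24), Slfn5 (1.05) and Daxx (1.47). Bst2, Zbp1 and Ifi35 were called whichever sample was left out, and the other 7 lost the call without at least 1 sample.

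**Figure D2:**
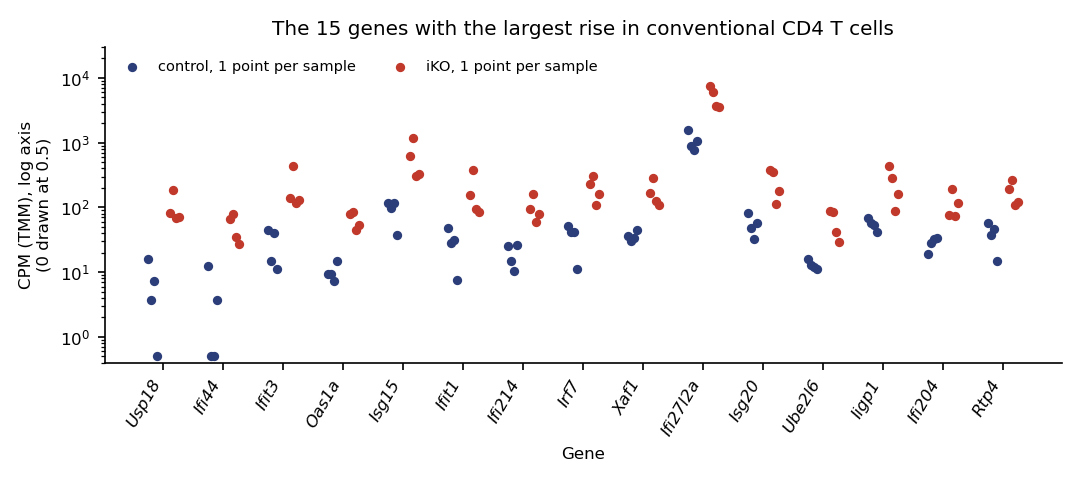
CPM (TMM-scaled, log axis, 0 drawn at 0.5) of the 15 genes with the largest rise that met the naming rule, with 1 point per sample, control left and iKO right of each gene. The groups do not overlap in any of the 15, as the rule required, and iKO sample 2 was highest for Usp18 (187 CPM) and Ifit3 (431 CPM).

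Of the 61 genes of the type I list, 60 were in the files and 51 passed the low-count filter. All 51 had a positive log2 fold change, 33 were called higher and 0 lower, and their median was 1.47 against -0.01 over all genes tested. In 40 of the 51 the CPM of the groups did not overlap, where 8.72% of all genes tested did not overlap (4.05% higher and 4.68% lower). Genes of the list that did not pass included Stat2, at a log2 fold change of 1.12 (edgeR adjusted p = 0.075), and Irf9, at 0.77 (0.127). The summed level of the list ran from 11437 to 23528 CPM in iKO and from 5621 to 8436 in control.

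Whether a few members or most carried this was read from single cells. After thinning to 2000 UMIs, a member held a mean of 15, 19.6, 12.1 and 12.3 detected type I list genes across the iKO samples, against 9.17, 7.83, 7.51 and 7.04 across the controls. The groups did not overlap, and the means were 14.8 ± 3.52 and 7.89 ± 0.912 (SD, n = 4; exact permutation p = 0.0286). The 10th percentile of members was 5 to 11 genes in iKO and 3.5 to 5 in control, ranges that meet at 5 and were not tested, and 0 members lacked the list in any sample. At least 5 list genes were found in 97.3% ± 4.33 of iKO members and 84.3% ± 8.31 of control members (exact permutation p = 0.0571), which did not pass. In the macrophage gate of the same samples Isg15 was in 70.6% of thinned barcodes in iKO and 25.9% in control, and the part of transcripts from other cells in the members was not tested.

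**Figure D3:**
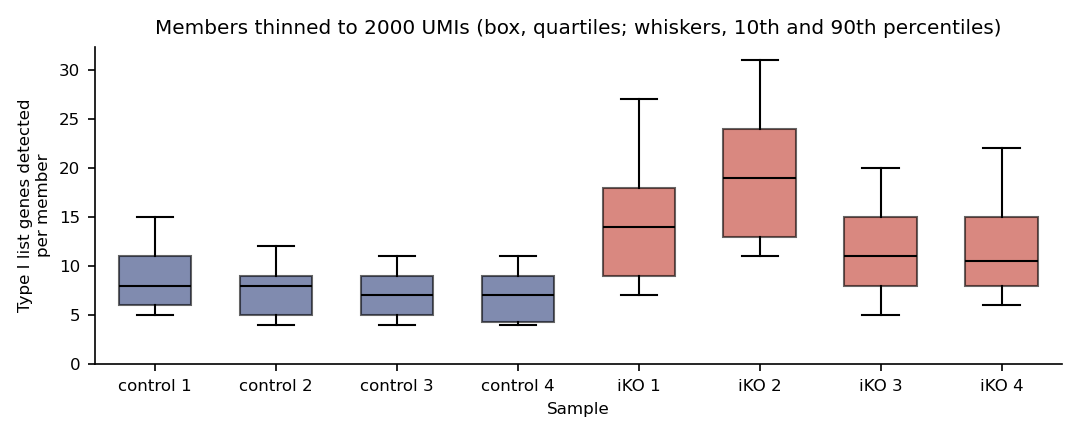
Number of type I interferon list genes detected in each member after thinning to 2000 UMIs, by sample, as boxes of the quartiles with whiskers to the last member within the 10th and 90th percentiles. Sample medians are 10.5 to 19 for iKO, against 7 to 8 for control.

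Among 29 tested genes of the interferon gamma list, 8 were called higher and 0 lower, with a median log2 fold change of 0.66. The called genes were the guanylate-binding proteins Gbp2 (1.2), Gbp3 (1.5) and Gbp6 (1.74), the GTPase gene Iigp1, the immunoproteasome genes Psmb8 (0.66) and Psme2 (0.71), and the classical MHC class I genes H2-K1 (0.46) and H2-D1 (0.44). The calls of H2-K1 and H2-D1 were lost without iKO 1, 2 or 4 or control 2, 3 or 4. H2-K1 was at 4346, 3882, 3247 and 3571 CPM in iKO and 3069, 2600.0, 2795 and 2450 in control, a small step in an abundant transcript with no overlap. The non-classical class I genes H2-Q7 (0.71), H2-T22 (1.1) and H2-T23 (0.81), on no list, were called higher as well, H2-Q7 and H2-T23 not without iKO 1 or 2 or control 2, 3 or 4. Class I genes share sequence, so reads may be split among them. Many genes of both lists answer to either interferon, and Ifng itself was not called (log2 fold change -0.18, edgeR adjusted p = 0.906). A single member held 92 of all 365 Ifng UMIs. Ifng UMIs numbered 38, 19, 39 and 40 in the iKO samples, against 38, 141, 28 and 22 in the controls. The sign of its fold change thus rests on few cells of control sample 2. The count of the interferon gamma list rests on single samples: it was 0 without control sample 3, 1 without iKO sample 1 or iKO sample 2, and 2 without control sample 2 or 4.

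The genes of the receptors and kinases upstream were not called. Of 19 tested genes for interferon receptors, JAK kinases and STAT factors, 0 passed edgeR's test, 1 had an unadjusted p under 0.05, and the median log2 fold change was -0.10. Ifnar1 and Ifnar2, the chains of the type I receptor, were at -0.10 and -0.30, and Ifngr1 at -0.35. The DNA sensor Cgas had 37 UMIs in members and was too low to test, while Sting1 was at 91.6 ± 12.1 CPM for iKO and 77.9 ± 17.3 for control (SD, n = 4; edgeR adjusted p = 0.674). Of the interferons, Ifna4 had 0 UMIs and Ifnb1 1 UMI in the members.

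Of 11 tested cytotoxic genes, 10 had a positive log2 fold change, with a median of 0.43, and 1, Gzmb, was called higher. Their summed level was 1093 to 2894 CPM in iKO, against 930 to 1436 in control. Gzmb, the gene of granzyme B, was at 795, 958, 86.9 and 672 CPM in the 4 iKO samples, against 233, 22.4, 40.0 and 71.8 in the 4 controls. Sample 3 of iKO lay within the control range and the other iKO samples above it. The log2 fold change was 2.74 ± 0.64 (edgeR adjusted p = 0.0403), and the call was lost without any of iKO samples 1, 2 and 4 and control samples 2, 3 and 4 (adjusted p 0.0697 to 0.144) and with DESeq2 (0.0866). After thinning, Gzmb was in 23.6% ± 10.4 of iKO members and 6.29% ± 7.01 of control members (exact permutation p = 0.0571), against 6.65% and 1.4% of the macrophage gate. CD8 T cells, of which 82.1% had Gzmb, took 28.4%, 37.9%, 12% and 10.1% of kept barcodes in the iKO samples, against 19.9%, 12.3%, 7.06% and 5.39% in the controls, and their part in this was not tested. No other of the 11 tested cytotoxic genes was called, among them Prf1 at 0.07, Nkg7 at 0.67 and Gzmk at 0.50.

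Tbx21, the Th1 master factor, was at a log2 fold change of 0.30 and Cxcr3, a chemokine receptor of Th1 cells, at 0.17, and neither was called (edgeR adjusted p = 0.765 and 0.785). Ly6a and Ly6c2, Ly6 surface proteins induced by interferon, rose by 1.00 ± 0.19 and 1.69 ± 0.39, the call of Ly6a being lost without iKO 1 or control 2 or 3. Ly6c2 was at 497, 809.9, 282 and 334 CPM in iKO and 288, 63.5, 132 and 102 in control, where control sample 1 lay within the iKO range. With iKO sample 1 or 2 or control sample 2, 3 or 4 left out, or with DESeq2, it was not called. Slamf7, an activating receptor of lymphocytes, rose by 1.86 ± 0.41 (adjusted p = 0.0324), and Cd48, a ligand of the same family, by 0.71 ± 0.16 (0.0298). Slamf7 lost its call without iKO 2 or control 2, 3 or 4, and Cd48 without iKO 1, 2 or 4 or control 1, 3 or 4.

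Differentiation and activation genes gave no calls in either direction for 15 genes of naive and central memory cells, 17 of the T cell receptor complex, 16 induced by receptor signalling, 8 checkpoint receptors, 3 of Th2, 6 of Th17, 4 of follicular helper and 7 of Treg. Unadjusted, 3, 6, 3, 1, 0, 1, 0 and 1 of these had a p under 0.05 in edgeR, as did 692 (13.7%) of all 5067 genes tested. Tcf7, a factor of naive and memory cells, was at 219, 197, 202 and 232 CPM in iKO and 253, 234, 234 and 265 in control, just below without overlap, with a log2 fold change of -0.21 (adjusted p = 0.557). Il7r, the survival receptor of resting T cells, was at 517, 478, 508 and 512 CPM against 643, 975, 1320 and 593 (-0.82, adjusted p = 0.0659). Every iKO sample was below every control sample, and the spread was among the controls. Pdcd1 and Ctla4, inhibitory receptors, were at 0.26 and 0.63, and Tnfrsf4, the costimulatory receptor OX40, at 0.38.

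Helper ligands were not called. Cd40lg was at 123, 93.5, 83.4 and 170 CPM in iKO and 116, 108, 124 and 117 in control, with the iKO values on both sides of the controls (log2 fold change 0.02 ± 0.21, edgeR adjusted p = 0.984). Tnfsf8, the CD30 ligand, was at -0.62, Ltb, the lymphotoxin beta gene, at 0.05 and Tnf at 0.06. Of 16 proliferation genes and 16 of glycolysis and hypoxia, 0 were called, with medians of 0.28 and 0.14. Among 16 genes that rise with tissue dissociation, Hspa8, a constitutive heat shock protein gene, was called higher (0.82 ± 0.13, adjusted p = 0.00467), while Fos was at 0.18 and Jun at -1.20. The remaining rises included Lgals1 (0.89), the gene of galectin-1, Glrx (1.46), a redox enzyme gene, and Vasp (0.74), an actin regulator, whose call was lost without iKO 1, 2 or 4 or control 2, 3 or 4. Lgals1 and Glrx were called whichever sample was left out. In members with Cd40lg neither was called, nor was Glrx in members with at least 2 Cd4 UMIs, both fits with fewer cells.

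**Figure D4:**
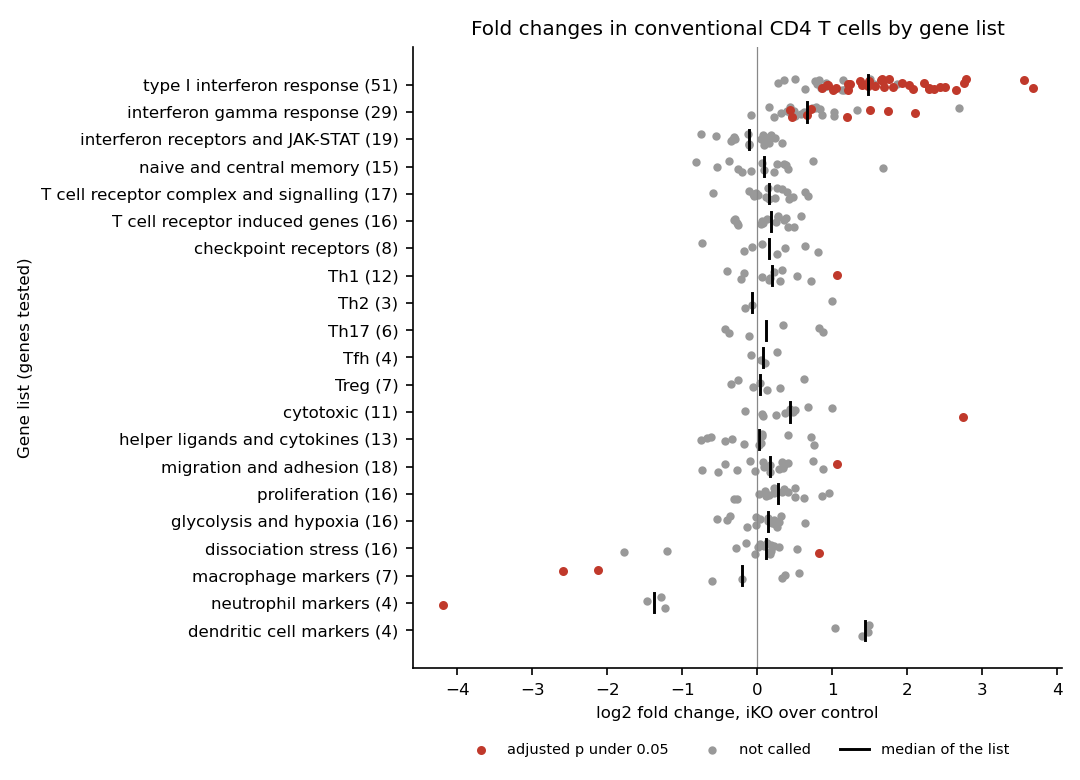
Log2 fold change of every tested gene of each list with at least 3 tested genes, 1 point per gene, coloured where the adjusted p was under 0.05, with the list median as a black line and the number of tested genes in brackets. The type I list has a median of 1.47 with 33 of 51 genes called, the neutrophil and dendritic cell lists have medians of -1.37 and 1.43 with 4 tested genes each, and the other medians lie between -0.20 and 0.66.

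The largest falls were of transcripts known from other cells. Retnlg, a neutrophil granule gene, was at 5.85, 4.92, 3.48 and 0 CPM in iKO and 47.1, 56.0, 111 and 60.5 in control (log2 fold change -4.19 ± 0.52, edgeR adjusted p = 0.00099). Thbs1 fell by 2.59 on the log2 scale, Cxcl2, a neutrophil-attracting chemokine, by 2.52, and Apoe, abundant in macrophages, by 2.12 (adjusted p = 0.0288, 0.0104 and 0.000183). The call of Thbs1 was lost without iKO 1, 2 or 4 or control 2. In fits with fewer cells, Apoe was not called among members with Cd40lg (edgeR adjusted p = 0.126). Cxcl2 was not called among members with at least 2 Cd4 UMIs (edgeR adjusted p = 0.131). Of the 12 macrophage markers, 7 were tested and 2 called lower, and of 8 neutrophil markers, 4 were tested and 1 called lower. Summed macrophage markers ran from 525 to 1300 CPM in iKO and from 808 to 1505 in control, and summed neutrophil markers from 172 to 2233 and from 1552 to 2354. The groups overlap through iKO sample 3 for the former and iKO sample 2 for the latter. Members with over 2% myeloid marker UMIs numbered 0, 2, 2 and 0 in iKO, against 2, 1, 3 and 1 in control. Dendritic cell markers, with 4 tested and 0 called, ran from 546 to 7925 CPM in iKO and from 810 to 1817 in control, highest in iKO sample 3. No NK, gamma-delta, melanoma or stroma marker passed the low-count filter.

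With members restricted to those with at most 0.3% myeloid marker UMIs, 431 members, edgeR called 113 genes, 78 higher and 35 lower, and 37 of 48 tested type I genes were higher. That gate was chosen after seeing the data. It kept 47, 49, 31 and 55 members in the iKO samples, of 50, 55, 34 and 57. In the controls it kept 74, 62, 80 and 33, of 104, 88, 120 and 47, so it cut the controls more. It selects on myeloid markers and not on interferon genes, so interferon transcripts from other cells were not tested by it.

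The other falls were smaller. Rps10, a ribosomal protein gene, was at 1783, 1516, 1554 and 1688 CPM in iKO and 3033, 3091, 3125 and 3168 in control (-0.92 ± 0.09, edgeR adjusted p = 0.000183). Replicates lay close together in both groups. Rps10 and the other called ribosomal genes have near-identical copies in the genome, so their counts are uncertain. The part of such copies in these falls was not tested. Tbc1d4, a regulator of glucose transporter traffic, fell by 1.15 ± 0.25 on the log2 scale, Pdcd4, a translation inhibitor, by 0.79 ± 0.17 and the vesicle traffic gene Lyst by 0.88 ± 0.18 (adjusted p = 0.0288, 0.0261 and 0.025). Each of these lost its call without iKO sample 1 and without control sample 2. Nin, Ccl6, Wdr89, Epb41, Kcnq1ot1, Tnrc6a and Atp2b4 fell by 0.81 to 1.24, all calls lost without at least 1 sample. The mitochondrial genes mt-Nd1, mt-Nd4, mt-Nd5, mt-Co1 and mt-Atp6 fell by 0.36 to 0.82. Of 8 fits with a sample left out, mt-Nd5 was called in 8, mt-Nd1 in 4, mt-Nd4 and mt-Co1 in 2 and mt-Atp6 in 0. The median mitochondrial share of a member's UMIs ran from 1.39% to 1.80% over the iKO samples and from 1.91% to 2.02% over the controls.

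Calls moved with the samples included. Leaving out a sample gave 29 to 146 called genes: 36 without iKO sample 1, 46 without iKO sample 2, 146 without iKO sample 3, and 36, 29 and 49 without control samples 2, 3 and 4. No call changed direction. Of the 92 called genes, 25 were called whichever sample was left out, among them Usp18, Ifit3, Oas1a, Isg15, Irf7, Ifi27l2a, Hspa8, Rps10, Retnlg and Apoe. Apoe was not called among members with Cd40lg.

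Which transcripts set conventional CD4 T cells apart from Treg was tested in the 7 samples with at least 20 cells of both, with the sample as a block. Genes of the rule are left aside. edgeR called 1592 of 6542 genes (24.3%), 824 higher in conventional CD4 T cells (12.6%) and 768 lower (11.7%). Cd40lg was at 117 ± 27.5 CPM in conventional CD4 T cells and 4.00 ± 3.89 in Treg (SD, n = 7), higher in 7 of 7 samples (log2 fold change 4.87 ± 0.34, adjusted p = 1.24e-07). Tcf7 was at 225 ± 19.0 against 13.5 ± 9.59 CPM (4.21 ± 0.30, adjusted p = 1.4e-07), and Bcl2, an inhibitor of cell death, at 196 ± 53.8 against 16.3 ± 12.9. Tnfsf8, Gzmk, Jaml, Gpm6b, Serpinb1a and Ehd3 were higher by 3.21 to 4.16. In the other direction, Ikzf2 was at 287 ± 168 against 1637 ± 155 CPM, Tnfrsf9, the costimulatory receptor 4-1BB, at 137 ± 43.6 against 770 ± 209, and Il10, a suppressive cytokine, at 10.4 ± 11.5 against 65.3 ± 52.3. Of 16 genes of naive and central memory cells 14 were higher in conventional CD4 T cells, and of 24 proliferation genes 22 were lower.

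Against CD8 T cells, in all 8 samples, edgeR called 2509 of 8642 genes (29%), 1166 higher (13.5%) and 1343 lower (15.5%). Cd40lg stood at 108 ± 23.4 against 2.17 ± 1.97 CPM (SD, n = 8), higher in 8 of 8 samples (6.44 ± 0.36, adjusted p = 7.02e-09). Maf, a factor of helper cells, was at 353 ± 97.6 against 39.4 ± 29.3 CPM, and Trat1, an adaptor of the T cell receptor, at 68.9 ± 23.2 against 5.05 ± 3.36. The killing genes were the other way round: Prf1, perforin, was at 22.5 ± 12.1 against 455 ± 352 CPM and Gzmf at 3.36 ± 2.12 against 178 ± 182. Eomes, a factor of cytotoxic cells, was at 5.62 ± 3.76 against 63.0 ± 24.1. Of 16 cytotoxic genes 14 were lower in conventional CD4 T cells, and of 24 proliferation genes 24.

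The interferon genes also differed in level between the classes, over both genotypes together. Of 59 tested type I list genes, 40 were called higher in conventional CD4 T cells than in CD8 T cells and 1 lower, with a median log2 difference of 0.70 against 0.01 over all genes. Against Treg, 15 of 57 were higher and 5 lower, with a median of 0.20 against 0.02. Ifi27l2a, for example, was higher than in CD8 T cells by 0.88 and lower than in Treg by 0.72 on the log2 scale. Macrophage markers differed too: 7 of 11 were higher than in CD8 T cells and 0 lower, with a median of 0.76. Of 7 neutrophil markers, 0 were higher or lower than in CD8 T cells. Members had a median of 5837 UMIs and CD8 T cells 13626. The part of transcripts from other cells in these differences was not tested.

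**Figure D5:**
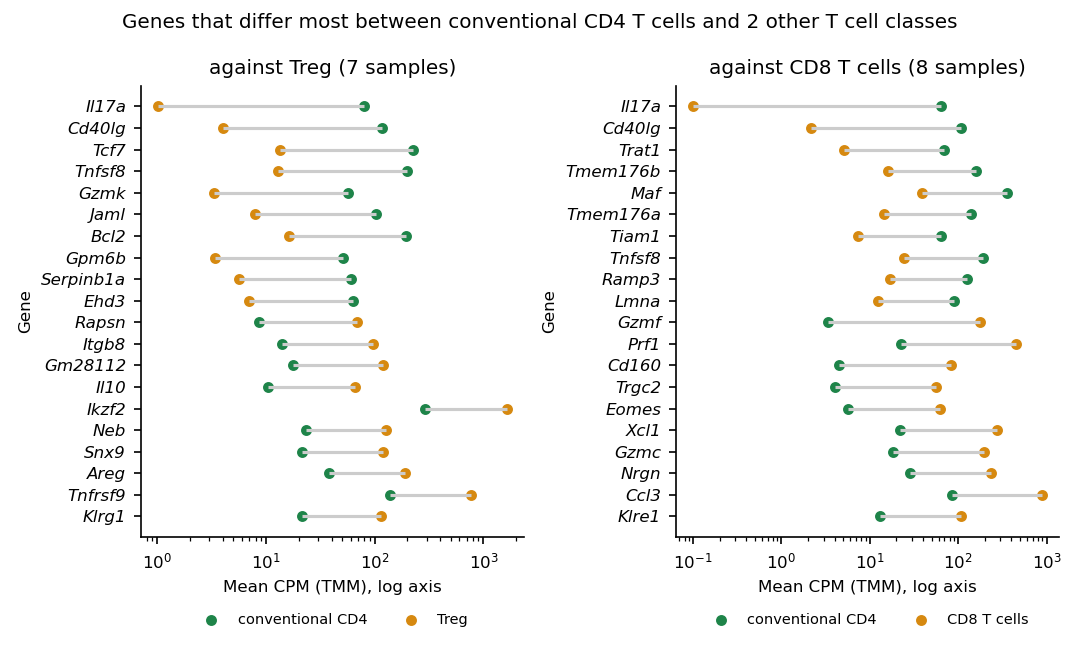
Mean CPM (TMM-scaled, log axis) of the 10 genes most higher and the 10 most lower in conventional CD4 T cells by the naming rule, against Treg (left, 7 samples) and CD8 T cells (right, 8 samples), with values under 0.1 drawn at 0.1. Il17a and Cd40lg lead both panels, Cd40lg at 117 against 4.00 CPM in Treg and 108 against 2.17 CPM in CD8 T cells.

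The effect of the genotype was not shown to differ between classes. The interaction of genotype and class passed edgeR's test for 0 of 6542 genes against Treg (299 with an unadjusted p under 0.05) and 0 of 8642 against CD8 T cells (283). For Isg15 the effect in conventional CD4 T cells exceeded that in CD8 T cells by 0.22 (95% interval -0.53 to 0.97) and differed from that in Treg by -0.08 (-1.13 to 0.97). For Irf7 these were 0.17 (-0.57 to 0.90) and -0.12 (-1.01 to 0.77). For Gzmb they were 1.52 (0.46 to 2.58) and 1.16 (-0.21 to 2.53), with adjusted p of 1 in both. Within each class alone, edgeR called 24 of 6007 genes in Treg (0.4%; 0.133% higher and 0.266% lower) and 221 of 9480 in CD8 T cells (2.33%; 1.46% higher and 0.876% lower), with median type I log2 fold changes of 1.37 and 1.27. The comparisons use different cells of the same samples.

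Il17a, the Th17 cytokine, marked a small set of the members. It was found in 22 of 555 (3.96%), against 1.12% of Treg, 0.150% of CD8 T cells and 0.103% of the macrophage gate. Summed per sample, Il17a was at 78.8 ± 63.7 CPM against 1.01 ± 1.01 in Treg (SD, n = 7; edgeR adjusted p = 3.55e-08) and at 63.5 ± 60 against 0.0287 ± 0.0541 in CD8 T cells (SD, n = 8; edgeR adjusted p = 1.49e-09), higher in 7 of 7 and 7 of 8 samples. Of these 22, 11 also held Il17f and 11 Ccr6, the receptor typical of Th17 cells, against 8 and 39 of the other 533. Tmem176a and Tmem176b, membrane proteins of Th17 cells and antigen-presenting cells, were each in 21 of the 22. Cd40lg was in 17, Ifng in 0 and Trdc in 0. The median UMI count was 6556.5 in these members and 5797 in the rest, and co-detection is given as a description.

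These cells occurred in 7 of the 8 samples: 1, 3, 3 and 4 in iKO, against 5, 2, 4 and 0 in control. The summed level of Il17a was 52.6, 22.2, 136 and 159 CPM in iKO and 140, 22.4, 17.8 and 0 in control, with wide overlap (log2 fold change 0.83 ± 0.69, edgeR adjusted p = 0.659). The 3 members with the most held 47.1% of all 238 Il17a UMIs, so the level rests on few cells.

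Ifng was found in 100 of 555 members, a lower share than the 73.8% of CD8 T cells and close to the 14.6% of Treg, at unequal depths. Members with Ifng also held Cxcr6, a tissue residence receptor, in 74.0% against 51.9% of the rest, Tbx21 in 29.0% against 11.2% and Nkg7 in 82.0% against 49.7%. Il2 was found in 34 members, Il21 in 9 and Il4 in 0, which allows up to 0.541% of members with an Il4 UMI. A single member, in control sample 2, held all 56 UMIs of the Th2 cytokine gene Il13. No member held both Il17a and Ifng.

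Pdcd1 was in 169 members (30.5%), of whom 57.4% held Ctla4 and 51.5% Tox, against 31.6% and 25.4% of the rest.

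Across the panel of 41 genes, thinned to 2000 UMIs, 0 shares passed after adjustment (smallest adjusted p = 0.146, exact permutation) and 8 reached 0.0286. These were Isg15, Ifit3, Irf7, Ifi27l2a, Ly6a, Ly6c2, Bst2 and Tnfrsf4. The exact permutation test of 4 against 4 samples cannot give a p under 0.0286. With 8 genes at that limit, no share could pass after adjustment over 41 genes, so the count of 0 decides nothing. Tnfrsf4 was found in 46.9%, 42.6%, 42.4% and 42.9% of iKO members and 31.4%, 38.1%, 30.7% and 34.8% of control members, against 0.931% and 1.92% of the macrophage gate. Its groups did not overlap in share, while its summed CPM did. Cd40lg was in 15.9% ± 3.45 of iKO members and 16.8% ± 4.03 of control members (exact permutation p = 0.714), and Pdcd1 in 18.1% ± 4.49 and 15.5% ± 5.79 (p = 0.543, exact permutation).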

How the data were processed

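Droplet 3' single-cell RNA counts of sorted CD45-positive tumour leukocytes were analysed. The authors deposited whole-number UMI counts per gene and barcode, 1 matrix per hashtagged sample, made with Cell Ranger 7.1.0 per the file headers. The build is GRCm39 per the submitters' processing notes. The genotype came from the labels, and each matrix's sample number from its file's name. Hashtags and 92 spike-ins were left out, leaving 32432 genes. Barcodes had at least 300 genes and at most 10% mitochondrial UMIs, and the members follow the rule in the text.

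Counts were summed over members per sample and tested with edgeR 4.0.16 in R 4.3.3 (TMM, filterByExpr, quasi-likelihood, Benjamini-Hochberg adjustment over all genes tested, threshold 0.05), with DESeq2 1.42.0 as an alternative. Profiles had at least 20 cells. Standard errors are of the log2 fold change, and 95% intervals use a normal approximation. Shares were compared by exact permutation tests, two-sided, of 4 against 4 samples. The fits were tested on simulated data. Summed UMIs and the spread between samples set the precision of the intervals. Limits for a count of 0 cover counting error only.

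Genes named in the iKO comparison were the 15 higher and 15 lower with the largest change among those called, at 50 CPM or more in 1 group and with groups that did not overlap. Called list genes were named too, apart from any not reported here. For the class contrasts the rule gave the 10 largest per direction with 50 CPM or more, all shown in the plot of class means. Receptor variable segments were left out. Other genes were chosen after their values were seen. The members and lists were chosen with earlier results of these data known. Rigi, Tcrg-C1 and Cd163l1 are not analysed here, and some genes are not reported here. RefSeq promoters (GRCm38.p6) were matched by symbol. Replicate numbers did not pair the samples (correlations of same-numbered deviations -0.036 to 0.048).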

Additional observations from a re-analysis of the deposited data

Results flagged for a closer look

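In 80 groups of 4 samples, 7 had a sample far from the other 3 (its gap to the nearest over the group's range above Dixon's limit for 4 samples), where chance gives about 1 in 20 groups. In iKO members, sample 2 stood out for Usp18, at 187 CPM with the next at 81.8, for Ifit3, at 431 with the next at 140.3, and for Cxcl2, at 130.5 with the next at 35.1. Sample 2 also stood out for summed neutrophil markers, at 2233 CPM with the next at 352. Sample 3 of iKO stood out for summed macrophage markers, at 1300 CPM with the next at 589. In control members, sample 4 stood out for Thbs1, at 193 CPM with the next at 57.9, and sample 1 for the summed type I interferon list, at 8436 CPM with the next at 5803.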

How the results depend on the processing

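The difference in the share of kept barcodes, -2.37 percentage points, was -7.25 of barcodes with Cd3e and -4.24 of barcodes without Csf1r and Csf3r, both past the threshold, -1.0 and -0.42 with the rule applied to counts thinned to 2000 and 1000 UMIs, and -3.12 to -2.0 with a sample left out. The 92 calls became 315 with no low-count filter (198 higher and 117 lower), 52 in members with at least 2 Cd4 UMIs, 44 in those with Cd40lg (samples with at least 20 such cells) and 29 to 146 with a sample left out. Under thinning to 2000 UMIs the calls were 83 (47 higher and 36 lower), those against Treg 601 and those against CD8 T cells 804, with fewer genes tested. With a sample left out, the interaction with Treg gave 0 to 1 calls. Type I list calls, 33, were 51 with no filter, 19 thinned, 21 with Cd40lg and 17 to 45 with a sample left out. Interferon gamma list calls, 8, were 19 with no filter, 2 with at least 2 Cd4 UMIs, 2 with Cd40lg and 0 to 13 with a sample left out. The difference in type I genes per member was 5.23 to 7.76 with a sample left out. The cause of these moves was not tested, beyond the fewer genes or cells. The replicate block gave 84 calls (67 higher and 17 lower), where 2 samples of 8 correlated best with their own number. Of the 92 genes, 19 were called under every alternative that tested them and 0 reversed. A fit within members free of 7 planned myeloid genes was not run, since 6 members remained. A planned comparison of the genotype effect between subsets of the members was not run, since the subsets held under 20 cells in every iKO sample.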
